A study of Mus musculus with 6 samples.

Results

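AP-1 transcription factors were measured at the RNA level in CD4+ T cells of mouse lymph nodes at 2 ages. The 10 genes examined were Fos, Fosb, Fosl2, Jun, Junb, Jund, Atf3, Batf, Bach1 and Maff, taken by symbol from a table of 52997 genes, and all 10 were found in it. The study compared 3 infant mice aged 10 days with 3 adult mice aged 7 weeks. Every mouse, of either age, carried the Foxp3-GFP reporter on a C57BL/6 background, so that cells expressing Foxp3, the regulatory T cell factor, fluoresce green. The titles call the cells Tconv and the series describes them as naive; which surface markers defined the sort is not stated in the labels. Each library came from 1000 cells that passed the sorter 2 times, and the lymph nodes of a mouse were pooled. The series states that a replicate is a single mouse. Totals ran from 3421253 to 4887371 counts per library. Levels are given as CPM, counts scaled to the TMM-adjusted total of the tested genes, and 3 counts in a library correspond to 0.628 to 0.852 CPM, for counting error only. Adult library 2 stood apart. In it as many as 36373 genes had a count, compared with 17992 to 21840 elsewhere, and over coding genes too low to test it held 1.85 counts per kb of exon, compared with 0.186 to 0.349 in the other libraries.

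AP-1 is a family of dimers of basic leucine zipper proteins that bind short DNA sites related to TGANTCA. Jun proteins pair with each other or with Fos proteins, Batf pairs with Jun proteins, and Bach1 and Maff belong to the neighbouring CNC and small Maf branches. In T cells, receptor stimulation induces Fos and activates Jun proteins through MAP kinases, AP-1 binds next to NFAT at cytokine genes, and Batf with Irf4 serves helper cell differentiation. Fos, Jun and their relatives are also known as immediate-early genes, whose RNA can appear while cells are being prepared.

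Junb, the most abundant of the 10 per base of exon, was lower in infant cells, and it was the single member to pass the test. Its RNA fell by 0.49 ± 0.12 (SE) on the log2 scale, 28.8% below the adult level. The other tested members, Fos, Fosl2, Jun, Jund, Batf and Bach1, did not pass. Fosb, Maff and Atf3 were too low to test.

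The upstream sequences of Junb, Fos and Jun are printed because Junb is the member that changed, Fos the member that varied most between mice, and Jun the founding partner of both. Each is the 250 bases before the RefSeq start site (GRCm38.p6), 5′ to 3′ on the gene's strand. All 10 members had a promoter entry. Capitals mark matches on either strand to the AP-1 site TGANTCA, its longer form TGACNTCA, the CREB core TGACG (contained in some of the longer sites), the CCAAT box, the TATAAA box and the CArG box bound by serum response factor.
Junb, chr8:84978749-84978998, minus strand: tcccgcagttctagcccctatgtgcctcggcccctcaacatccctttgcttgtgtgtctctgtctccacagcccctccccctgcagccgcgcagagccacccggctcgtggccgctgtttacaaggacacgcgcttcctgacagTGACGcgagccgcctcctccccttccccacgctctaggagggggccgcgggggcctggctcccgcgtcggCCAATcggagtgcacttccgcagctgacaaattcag
Fos, chr12:85473640-85473889, plus strand: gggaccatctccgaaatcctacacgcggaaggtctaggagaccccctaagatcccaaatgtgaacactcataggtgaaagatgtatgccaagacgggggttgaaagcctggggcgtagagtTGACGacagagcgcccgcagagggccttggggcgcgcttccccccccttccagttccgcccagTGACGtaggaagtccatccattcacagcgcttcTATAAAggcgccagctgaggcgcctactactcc
Jun, chr4:95052223-95052472, minus strand: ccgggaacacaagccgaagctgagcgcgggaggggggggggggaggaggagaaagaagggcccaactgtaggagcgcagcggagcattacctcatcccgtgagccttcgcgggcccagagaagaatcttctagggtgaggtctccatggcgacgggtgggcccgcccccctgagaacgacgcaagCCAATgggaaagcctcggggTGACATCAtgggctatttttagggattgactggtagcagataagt
The Junb window held TGACG, beginning 106 bases before the start, and CCAAT at 36 bases. A TATAAA began at position 1 of the RefSeq transcript, and GENCODE places the Junb start 30 bases further downstream. The Fos window held TGACG at 129 and 66 bases and TATAAA at 33 bases before the start. In the Jun window CCAAT stood at 65 and TGACATCA at 45 bases. Of 32851 upstream windows of this length, 17.8% held TGACG and 33.8% CCAAT. The share was 12.4% for TATAAA and 7.49% for TGACNTCA. It was 6.75% for TGANTCA and 1.47% for the CArG box. TGANTCA and the CArG box matched in none of the 3 printed windows. Sites more than 250 bases upstream lie outside these windows and were not searched.

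Levels between members were compared per kilobase of exon. Junb was highest, at 84.8 ± 9.09 CPM per kb in the adults and 60.4 ± 3.31 in the infants (mean ± SD, n = 3). Batf came next at 35.4 ± 2.93 and 31.2 ± 2.28. Junb and Batf did not overlap with each other or with the next gene at either age. Fos stood at 3.93 ± 3.75 and 4.38 ± 2.17 CPM per kb and Bach1 at 3.92 ± 1.33 and 3.18 ± 0.844, and this pair overlapped at both ages. Jund followed with 0.950 ± 0.282 in the adults and 2.29 ± 1.16 in the infants, and Jun with 1.55 ± 0.830 and 0.766 ± 0.443. Jund and Jun overlapped in adult but not in infant libraries. Fosl2 had 0.672 ± 0.263 and 0.681 ± 0.297 CPM per kb, and Maff, Fosb and Atf3 all had means below 0.25. Among the 3 Jun genes, Junb thus far outweighed Jun. The counted level of Jund was also lower, but Jund shares 877 of its 1668 exon bases with an antisense gene. How reads over these bases were counted is not stated, so how far Jund lies below Junb is uncertain.

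**Figure D1:**
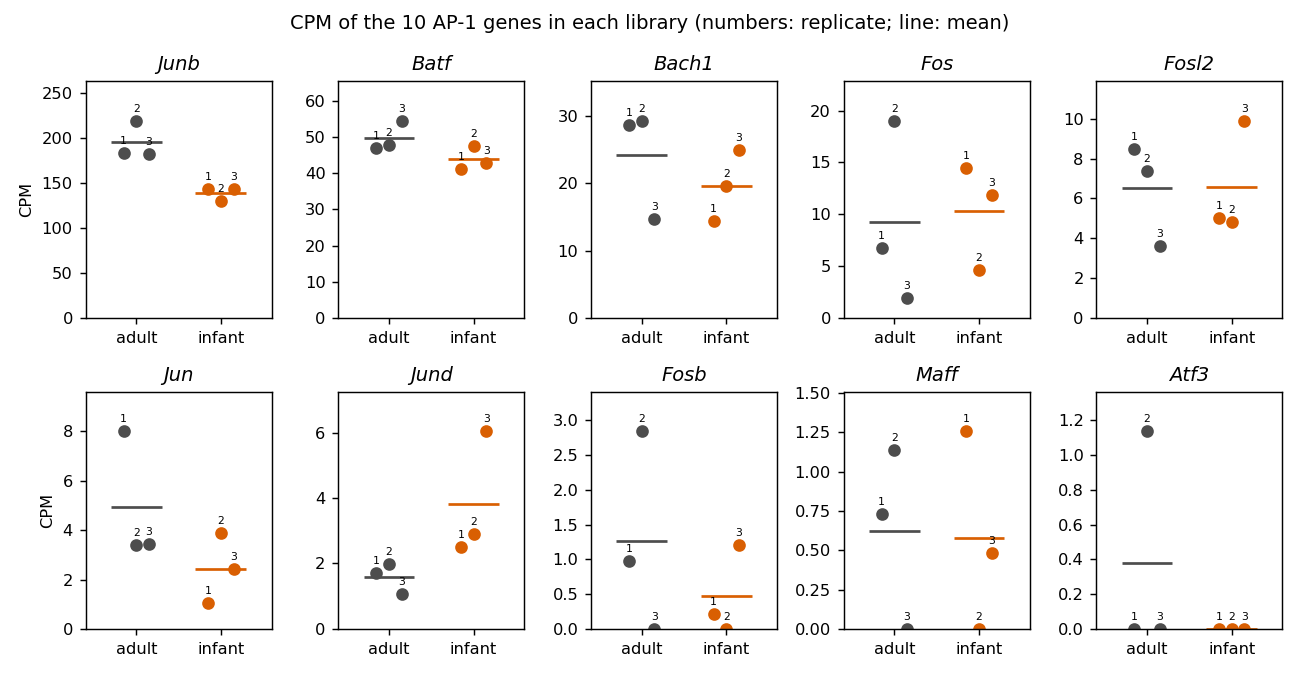
CPM of each of the 10 genes (vertical axes, from 0, scaled by gene) in the 3 adult (grey) and 3 infant (orange) libraries; numbers give the replicate and horizontal lines the group mean. The infant points of Junb all lie below the adult points and those of Jund all above, while the points of the other genes overlap between ages.

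Junb lies on chromosome 8 (84974484 to 84978718, GRCm38, minus strand) and encodes a Jun protein that is a weaker activator than Jun and restrains it. Adult libraries 1, 2 and 3 had 184, 219 and 182 CPM, and the infant libraries 144, 130.1 and 143. No infant value reached the lowest adult value. The log2 fold change, infant over adult, was −0.49 ± 0.12 (95% interval −0.74 to −0.24, edgeR quasi-likelihood test, adjusted p = 0.0319). Of all 11681 genes tested, 3.64% passed in either direction and 2.11% were lower in infant cells, and 22.8% had groups that did not overlap. Among the 7 tested members 1 passed, and 2 had groups that did not overlap, Junb and Jund. Of these, Jund met the filter on low counts only through its infant libraries. Of the log2 fold changes of the 7 tested members, 4 lay below 0 and 3 above. Their median was −0.19, the value of Batf, which did not pass, against −0.0017 over all tested genes.

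The Junb call depended on every library. Leaving out any 1 of the 6 gave log2 fold changes of −0.54 to −0.40 with edgeR adjusted p of 0.0648 to 0.199. Without adult library 2, which had the highest level, the value was −0.40 (adjusted p = 0.0686). It was also lost without the filter on low counts (adjusted p = 0.194). In bulk RNA, fewer cells of a type and less RNA per cell cannot be told apart. Junb shares 173 of its 2301 exon bases with Prdx2 on the other strand, and the library protocol does not mark strand. Prdx2, a peroxiredoxin gene, had a log2 fold change of 0.06 ± 0.14 (edgeR adjusted p = 0.891).

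**Figure D2:**
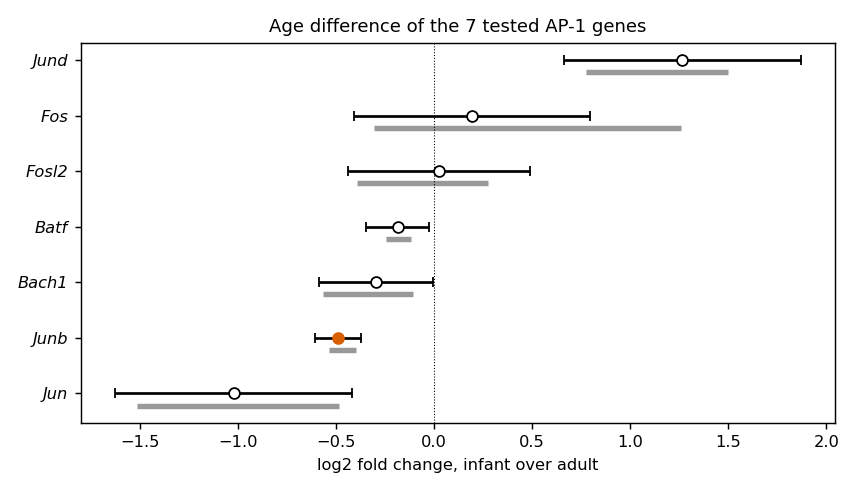
Log2 fold change, infant over adult (horizontal axis), of the 7 tested AP-1 genes: circles with SE bars, filled where the edgeR adjusted p was under 0.05, and grey bars for the range when any 1 library was left out. Junb is the filled point at −0.49, and the grey bars of Fos and Fosl2 cross 0.

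Jun, on chromosome 4 (95049034 to 95052222), is the classical Jun protein and the strongest activator of the group. It had 8.0, 3.41 and 3.42 CPM in the adults and 1.05, 3.87 and 2.42 CPM in the infants. Adult library 1 was the highest, and infant library 2 lay above the remaining adult values. The log2 fold change of −1.02 ± 0.60 did not pass (95% interval −2.31 to 0.27, edgeR adjusted p = 0.434). These values rest on 5 to 33 counts per library, so a fall of more than 4-fold and a small rise both lie inside the interval. Jun shares 232 of its 3189 exon bases with the antisense gene Junos, and the protocol does not mark strand. Junos had 6, 15 and 4 counts in the adults and 4, 0 and 0 in the infants. Its part in the Jun values was not tested.

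Jund, on chromosome 8 (70698949 to 70700616), is the Jun protein usually present in resting cells. The adult libraries had 1.70, 1.99 and 1.07 CPM and the infant libraries 2.51, 2.90 and 6.04. All infant values lay above all adult values, with infant library 3 highest. The log2 fold change was 1.26 ± 0.60 (95% interval −0.03 to 2.56) and did not pass (edgeR adjusted p = 0.304), on 5 to 25 counts per library. Jund shares 877 of its 1668 exon bases with the antisense gene Gm11175, which had 0 counts in all 6 libraries. The labels do not say how reads over such shared bases were counted, which leaves the level of Jund uncertain. GC content of the longest transcript was 67.1% for Jund, 62.6% for Junb and 55.5% for Jun.

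Fos, on chromosome 12 (85473890 to 85477273), forms the most stable dimers with Jun proteins and is induced within minutes of stimulation. Adult libraries 1, 2 and 3 had 6.79, 19.0 and 1.92 CPM and the infant libraries 14.4, 4.60 and 11.8. The highest and the lowest value of all 6 were both adult. The age difference (log2 fold change 0.19 ± 0.60, 95% interval −1.10 to 1.48) did not pass (edgeR adjusted p = 0.916), and its sign depended on single libraries, from −0.31 without adult replicate 3 to 1.26 without adult replicate 2. Within an age, Fos differed 9.90-fold between the highest and lowest adult and 3.14-fold between infant mice. Its SD of log2 CPM within ages was 1.22, against a median of 0.40 over 1486 genes of like level (within 0.5 on the log2 CPM scale), which placed it at percentile 99.1 among them.

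**Figure D3:**
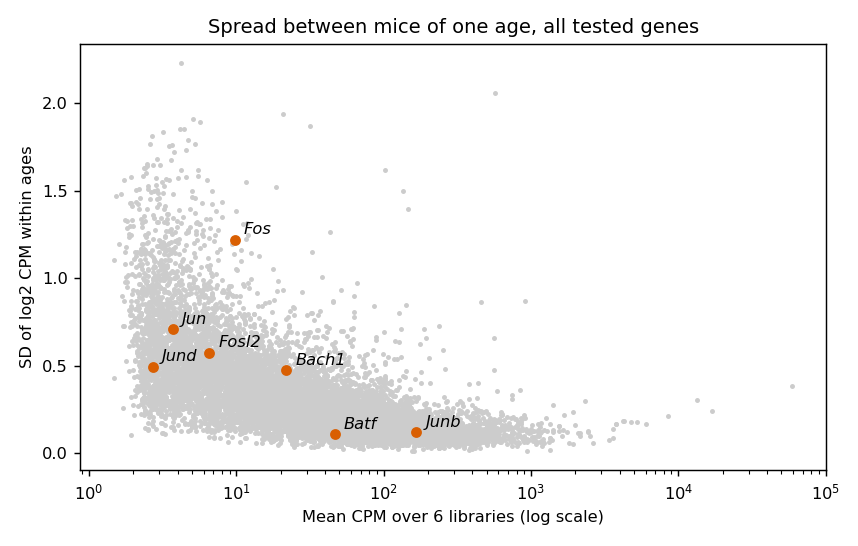
SD of log2 CPM within ages (vertical axis) against mean CPM over the 6 libraries (horizontal, log scale) for all 11681 tested genes in grey, with the 7 tested AP-1 genes in orange. Fos lies at 1.22, above most genes of its level, whereas Batf (0.11) and Junb (0.12) lie low.

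The other members with enough counts were steadier. Fosl2, a Fos protein without the strong activation domain of Fos, had 8.49, 7.39 and 3.63 CPM in the adults and 5.03, 4.84 and 9.90 CPM in the infants. The ages overlapped (log2 fold change 0.02 ± 0.46, edgeR adjusted p = 0.988). Batf, a small zipper protein on chromosome 12 (85686669 to 85709087), had 47.0, 47.7 and 54.5 CPM in the adults and 41.2, 47.4 and 42.7 in the infants. Its highest infant value lay inside the adult range, and the log2 fold change of −0.19 ± 0.16 did not pass (95% interval −0.53 to 0.16, adjusted p = 0.613). Batf had the smallest spread of the 7 tested members, an SD of 0.11 where genes of like level had a median of 0.21. Bach1, a haem-regulated repressor on chromosome 16 (87698945 to 87733346), had 28.6, 29.3 and 14.7 CPM in the adults and 14.4, 19.6 and 24.9 CPM in the infants. Its log2 fold change was −0.30 ± 0.29 (adjusted p = 0.664), with a spread of 0.47 at percentile 90.0 of genes of like level.

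Fosb, Maff and Atf3 were near the floor. Fosb, a further Fos protein, had 4, 10 and 0 counts in the adults and 1, 0 and 5 in the infants. Maff, a small Maf protein, had 3, 4 and 0 counts in the adults and 6, 0 and 2 in the infants. Atf3, a stress-induced repressor, had 4 counts in adult library 2 and 0 in the other 5, where 0 allows up to 0.727 CPM in a library. In adult library 2 the counts of Atf3, Fosb and Maff came to 1.86, 1.60 and 1.54 per kb, close to the 1.85 of untested coding genes there, whereas Fos came to 28.5 and Junb to 336 per kb. Of the tested members, Fosl2, Jun and Jund lay nearer to that level in this library, at 2.686, 3.763 and 4.197 per kb. How much of their counts in adult library 2 came from what raised the untested genes was not tested. In the other libraries Maff came to 0 to 2.31 and Fosb to 0 to 0.801 per kb, with untested coding genes at 0.186 to 0.349, and each of the 2 lay above that level in some libraries and at 0 in others.

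The make-up of the AP-1 RNA pool was compared as each member's share of the summed CPM per kb, a quantity that does not depend on library scaling. Shares in a library are bound together: a lower level of Junb alone raises the shares of the others. Junb made up 63.6%, 65.0% and 64.3% of the pool in adults and 60.5%, 57.2% and 57.9% in infants. The difference of −5.76 percentage points had an exact permutation p of 0.1 (two-sided), the smallest that 3 against 3 allows, and 0.5 after adjustment over the 10 members. Jund held 0.714% ± 0.169 in adults and 2.20% ± 1.03 in infants (SD, n = 3), with the same exact p and adjusted p. Its difference of 1.48 percentage points was 0.896 without infant replicate 3. Batf held 27.1% ± 4.14 in adult and 30.3% ± 3.31 in infant libraries (difference 3.23 percentage points, exact permutation p = 0.4). That difference was 1.27 without adult replicate 2, 1.32 without infant replicate 2 and 5.40 without adult replicate 3. The level of Batf itself averaged 35.4 CPM per kb in the adults and 31.2 in the infants. Fos held 0.663% to 5.52% in adult and 1.98% to 5.96% in infant libraries. The summed CPM of the 10 genes was 286, 333 and 262 in the adults and 224, 213 and 242 in the infants. No infant sum reached an adult sum, and Junb was the largest part of each.

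**Figure D4:**
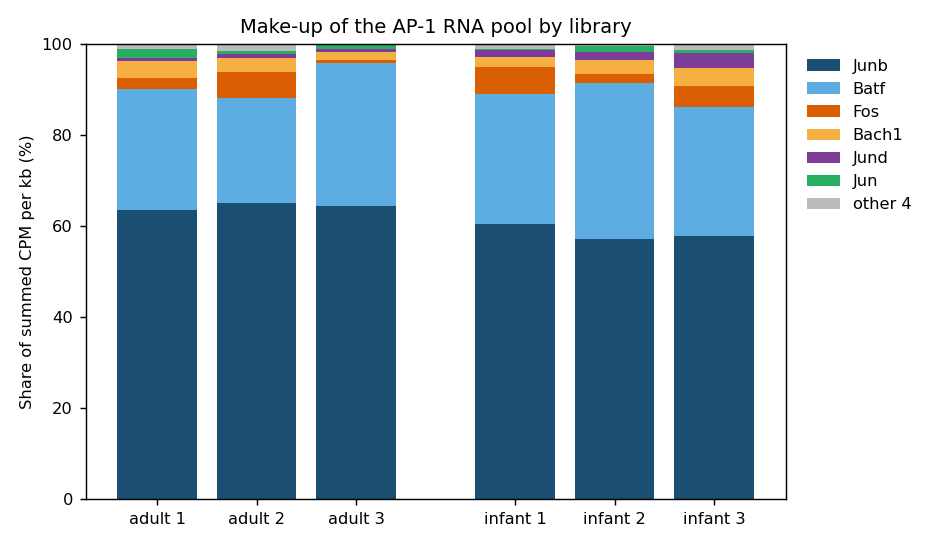
Share of each gene in the summed CPM per kb of the 10 AP-1 genes (vertical axis, percent) for each library, stacked; grey stands for Fosl2, Fosb, Maff and Atf3 together. Junb fills 63.6% to 65.0% of the adult and 57.2% to 60.5% of the infant bars, and the Fos band changes from bar to bar within each age.

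None of the 8 tested relatives among 19 other bZIP genes passed (edgeR, with 3 at an unadjusted p under 0.05, as had 17.3% of all tested genes; 0 also with DESeq2 and limma-voom). Over all tested genes 3.64% passed (edgeR). The median log2 fold change of the 8 relatives was −0.20, with 6 of 8 below 0. Nfe2l2, the CNC factor of the oxidative stress response, had 146 ± 24.7 CPM in the adults and 114.9 ± 13.4 in the infants (log2 fold change −0.35 ± 0.14, adjusted p = 0.219). Bach2, a repressor that competes for AP-1 sites and preserves the naive state, had 138.6 ± 19.5 and 110.8 ± 5.87 CPM (−0.32 ± 0.13, adjusted p = 0.209), with no overlap between ages. The other 11, among them Fosl1, Batf3, Jdp2 and Maf, were too low to test.

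The kinases and adaptors that lead from the T cell receptor to AP-1 gave no call between the ages. Over all tested genes 3.64% passed (edgeR) and 17.3% had an unadjusted p under 0.05. In lists this small, 0 calls is near that share. Of 22 listed genes 21 were tested and 0 passed (edgeR, with 1 at an unadjusted p under 0.05; 0 with DESeq2 and limma-voom), with a median log2 fold change of −0.01. Prkcq, the protein kinase C of the receptor synapse, had 683 ± 56.4 CPM in the adults and 676 ± 38.2 in the infants, and Rasgrp1, which activates Ras, 438 ± 83.2 and 419 ± 98.9. Of 12 transcriptional regulators of Fos and Jun, 11 were tested and 0 passed (1 at an unadjusted p under 0.05; 0 with DESeq2 and limma-voom), with a median of 0.15. Among them Elk4, a partner of serum response factor, had 210.2 ± 20.5 and 234 ± 20.5 CPM, and Mkl1, its actin-regulated coactivator, 166 ± 9.63 and 161 ± 13.5 CPM.

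Partners and turnover genes gave no call either, which in such short lists is near the 3.64% of all tested genes that passed (edgeR). An unadjusted p under 0.05 was found for 17.3% of all tested genes. The 7 DNA-binding partners had 0 that passed (edgeR, 0 at an unadjusted p under 0.05; 0 with DESeq2 and limma-voom) and a median of −0.07. Ets1, a lymphocyte ETS factor, had 1038 ± 100.5 CPM in the adults and 989 ± 79.4 in the infants, and Nfatc3, an NFAT family member, 181 ± 27.9 and 172 ± 23.6. The 7 genes of AP-1 protein and mRNA turnover also had 0 that passed (1 at an unadjusted p under 0.05; 0 with DESeq2 and limma-voom) and a median of −0.15. Itch, a ubiquitin ligase for Junb and Jun, had 115 ± 19.4 and 91.6 ± 4.06 CPM (log2 fold change −0.34 ± 0.14, edgeR adjusted p = 0.234). Zfp36l1, which promotes decay of AU-rich messages, had 62.5 ± 16.1 and 47.4 ± 8.62 CPM.

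Of 14 T cell genes with known AP-1 sites 6 were tested, and Cd69, an early activation marker that retains cells in lymph nodes, was the 1 that passed, where 3.64% of all tested genes passed and 1.52% were higher in infant cells. The adult libraries had 266, 175 and 199 CPM and the infant libraries 328, 304 and 344, a rise of 0.61 ± 0.14 on the log2 scale (edgeR adjusted p = 0.0255). That call was lost without adult replicate 3 or any infant replicate (adjusted p at most 0.139) and after removal of a GC trend (0.0524), an alternative chosen after seeing the data. The median log2 fold change of the 6 was 0.38, but −0.08 without infant replicate 1. Il2, the growth factor gene at which AP-1 and NFAT cooperate, is named here after its values were seen. It had 6.06, 0.284 and 0.214 CPM in the adults and 15.9, 0 and 2.66 in the infants, for a log2 fold change of 1.50 ± 1.15 that did not pass (edgeR adjusted p = 0.561).

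Other immediate-early and stress genes split in 2 directions. The list held 20 genes and 15 could be tested. In infant cells 3 rose (1.52% of all tested genes rose), 3 fell (2.11% of all tested genes fell) and 9 passed in neither direction, and the median was −0.31 on the log2 scale. Nr4a1, a nuclear receptor induced by receptor signals, and Egr1, a zinc finger factor that responds to MAP kinase, rose along with Cd69. Nr4a1 had 80.0, 60.8 and 63.5 CPM in the adults and 118.7, 113.2 and 136 in the infants (log2 fold change 0.85 ± 0.14, edgeR adjusted p = 0.00394). Egr1 had 60.6, 73.6 and 71.8 CPM in the adults and 109.9, 100.4 and 122 in the infants (0.69 ± 0.14, adjusted p = 0.0116). Neither gene overlapped between ages, and both lay opposite in direction to Junb.

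Socs3, an inhibitor of cytokine signals, Klf6, a Krüppel-like factor, and Btg2, an antiproliferative factor, fell in infant cells. Socs3 had 117.6, 91.5 and 136 CPM in the adults and 33.1, 42.3 and 25.8 in the infants (log2 fold change −1.77 ± 0.19, edgeR adjusted p = 1.35e-04). Klf6 had 172, 140.6 and 144 CPM in the adults and 82.7, 73.8 and 76.1 in the infants (−0.97 ± 0.13, adjusted p = 7.58e-04). Btg2 went from 355 ± 18.3 to 243 ± 18.9 CPM (−0.55 ± 0.11, adjusted p = 0.00921), a change of about the size of that of Junb. Socs3, Klf6 and Nr4a1 kept their calls when any 1 library was left out. Egr1 fell short when adult replicate 1, infant replicate 1 or infant replicate 3 was omitted (edgeR adjusted p at most 0.0800). Btg2 fell short when adult replicate 1, infant replicate 2 or infant replicate 3 was omitted (at most 0.105), and also without the filter on low counts (0.0728). With infant replicate 3 omitted the list had 1 gene that rose and 2 that fell.

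**Figure D5:**
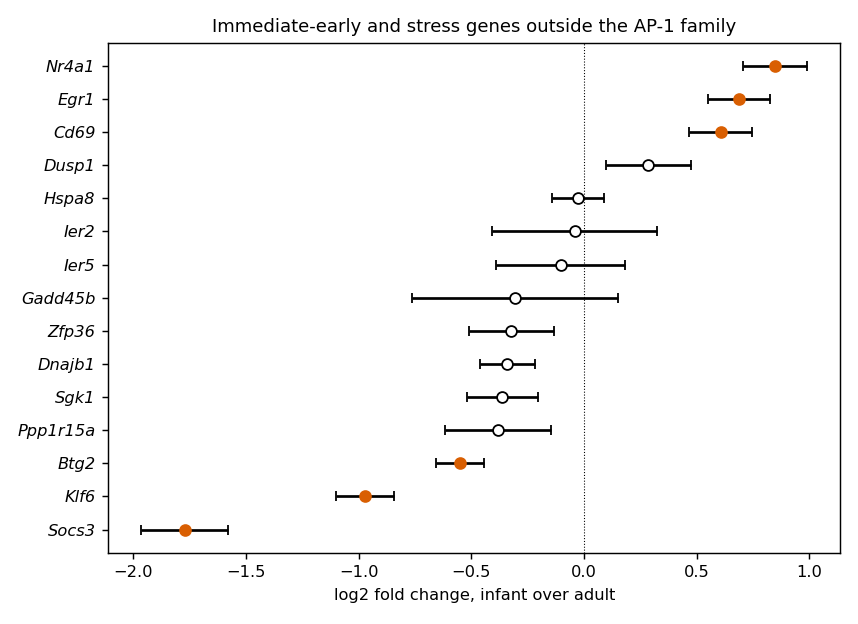
Log2 fold change, infant over adult (horizontal axis), of the 15 tested immediate-early and stress genes outside the AP-1 list, with SE bars; filled circles passed at an edgeR adjusted p under 0.05. Nr4a1, Egr1 and Cd69 lie to the right of 0, and Btg2, Klf6 and Socs3 to the left.

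Genes with the pattern most like Junb over the 6 libraries, by the root mean square difference of centred log2 CPM among 7077 genes of at least 20 CPM, were Lpin2 (0.044), Tob2 (0.057) and Fam26f (0.057), where the median gene differed by 0.33. Those nearest to Jun were Jrk (0.34), Isoc1 (0.37) and Ptges3 (0.37), with a median of 0.76. Among the same 7077 genes Fos had no close match: Fam216a (0.62), Trim21 (0.70) and Ubxn8 (0.72) came nearest, with a median of 1.06. Fos and Jun themselves lay below 20 CPM, so genes of their own level were not compared.

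All 11 CD4 T cell markers passed the filter on low counts. All 4 tested of 5 markers of dividing cells rose, Top2a, Mki67, Nusap1 and Ccna2, where 1.52% of all tested genes rose. Mki67, Nusap1 and Ccna2 met the filter on low counts only through their infant libraries, so their direction was in part fixed by it. The untested Ccnb1 had 0, 12 and 8 counts in the adults and 1, 2 and 37 in the infants. The 5 markers summed to 7.52 to 27.3 CPM in adult and 69.7 to 144.9 CPM in infant libraries. Adult library 2 set the upper adult sum for this list, the B cell, natural killer, myeloid and dendritic lists, and without it those sums reached 13.9, 9.61, 24.2, 12.1 and 13.1 CPM. Of 4 natural killer markers Klrd1 was tested and fell, as did 2.11% of all tested genes. The untested Ncr1 had 0 counts in every library, and Klrb1c and Nkg7 had at most 2 outside adult library 2. The natural killer list summed to 14.1 to 30.1 CPM in adult and 7.12 to 8.71 CPM in infant libraries. The 5 B cell markers summed to 8.0 to 15.1 CPM and 4.60 to 8.45 CPM. The 7 myeloid markers summed to 6.62 to 15.9 CPM and 15.5 to 20.1 CPM, led by Itgam and Cd68, with Lyz2 at no more than 4 counts in any library. The 5 dendritic markers summed to 8.97 to 31.5 CPM and 9.43 to 18.1 CPM, most of it Zbtb46 outside adult library 2. The 5 regulatory T cell markers summed to 111 to 129.9 CPM and 89.0 to 96.1 CPM, most of it Tnfrsf18 (99.7 ± 18.5 and 68.0 ± 3.35 CPM, edgeR adjusted p = 0.0601), and none of the 5 passed. The defining marker Foxp3 lay the other way at 5.60 ± 0.968 and 7.61 ± 1.39 CPM, with no overlap between ages (adjusted p = 0.626), and Ikzf2 had 6.33 ± 3.46 and 9.15 ± 0.779 CPM. The 7 markers of memory or activated cells summed to 81.4 to 125.6 CPM and 79.5 to 99.5 CPM. The lists for CD8 cells (led by Cd8b1), gamma-delta cells (Trdc), red cells (Alas2) and stroma or endothelium (Pecam1) had ranges that overlapped between ages and no tested member that passed. In each of these lists the named gene was the only 1 with enough counts to test. Cd8a had at most 8 counts in any library, and each haemoglobin gene at most 1. The part of these cell types in the fall of Junb was not tested.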

How the data were processed

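STAR 2.5.4 (alignment), featureCounts (counting) and the mm10 build are named in the submitters' processing notes; annotation release, strand setting and treatment of reads matching several genes were not stated there. The authors deposited raw counts per gene symbol for 6 libraries, with 25-base paired reads and no molecular identifiers, so counts include PCR copies. Genes were tested with edgeR 4.0.16 (R 4.3.3) with a quasi-likelihood F test on age alone. Of all genes, 11681 passed filterByExpr (at least 10 counts, total at least 15); TMM scaling was used, and p-values were adjusted by Benjamini-Hochberg at 0.05. SEs were derived from the log2 fold change and F. Exon lengths, overlaps and GC content came from GENCODE M21 (GRCm38), and promoter sequences from RefSeq. Replicate pairs differed by more than counting noise (chi-square over its degrees of freedom, 5.44 to 13.4). Alternatives were DESeq2 1.42.0, limma-voom 3.58.1, 3 other scalings, 2 other filters, thinning to 3421253 counts, the replicate number as a block, and leaving out each library. Removal of a GC trend was added after seeing the data.

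The members and lists were chosen with earlier results of these data known. Genes were named by rule: all members; in each other list those that passed, at most 5 by p, or else the 2 of highest CPM; and the 3 genes nearest in pattern to Fos, Jun and Junb; a few marker genes named by this rule are given only within their list or are not reported here.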

Additional observations from a re-analysis of the deposited data

How the results depend on the processing

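Of the 10 AP-1 genes, the 1 that passed, Junb, kept its direction under all 16 alternatives and passed in 8 of them. Among both numbers is the removal of a GC trend, chosen after seeing the data (edgeR adjusted p = 0.0419). The count of members was 0 without the filter on low counts and with a replicate block, and 0 whenever 1 library was left out. With the replicate block the log2 fold change of Junb was −0.49 (edgeR adjusted p = 0.0662). Same-numbered libraries did not deviate together (correlations of −0.047, −0.011 and −0.092), and differently numbered ones had −0.027 to 0.076. These values gave no sign that the numbers pair the mice, but with 3 libraries per age they cannot exclude it. Thinning every library to the smallest total gave log2 fold changes of −0.038 for Fos and −0.097 for Fosl2, against 0.19 and 0.024, and leaving out 1 library gave −0.31 to 1.26 and −0.39 to 0.28. The cause was not tested. Among kinases 1 gene passed without the filter, and 0 did otherwise. The AP-1 target count was 0 to 1 and the immediate-early count 3 to 6 when 1 library was left out. Shares of the pool changed sign when 1 library was left out for Fosb (−0.15 to 0.0091 percentage points), Fosl2 (−0.0030 to 0.24), Bach1 (−0.38 to 0.53) and Maff (−0.087 to 0.15), while Junb stayed between −6.76 and −5.09. Counts of 5 to 33 per library limit what can be said of Jun and Jund.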
